A study of Mus musculus with 12 samples.

Results

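The JAK kinases and STAT factors followed here were the 9 genes *Jak1*, *Jak2*, *Jak3*, *Tyk2*, *Stat2*, *Stat3*, *Stat5a*, *Stat5b* and *Stat6*, chosen by name from the 15651 genes of the deposited RNA-seq table. All 9 were listed in every library and all passed the filter on low values. They comprise 4 kinases and 5 transcription factors. The RNA came from c-Kit+ splenocytes of moribund mice with acute myeloid leukemia (AML), 3 mice of genotype Dnmt3a fl/fl, Flt3 ITD/ITD, Mx1Cre (*D/F*) and 3 of genotype Tet2 fl/fl, Flt3 ITD/ITD, Mx1Cre (*T/F*). Both genotypes therefore carried the internal tandem duplication of the receptor tyrosine kinase gene *Flt3* on both alleles and the interferon-inducible Cre, and they differed in the floxed regulator of DNA methylation. Per the study's methods the floxed alleles were left to recombine without induction, so that a cell may have lost 1 or both copies. The c-Kit+ cells of every mouse were divided and cultured for 6 hours either with DMSO alone or with CCS1477 (inobrodib), a ligand of the bromodomains of the histone acetyltransferases CBP and p300, which gave 12 libraries in 4 groups of 3. *D/F* cells received 4 μM and *T/F* cells 2 μM, so dose and genotype cannot be told apart. All cultures held the cytokines SCF, IL6 and IL3. No untreated cells outside DMSO and no wild-type cells were among the samples, and the ages of the mice were not given in the labels.

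Cytokine receptors of the hematopoietic type have no kinase of their own and bind JAK kinases, which phosphorylate STAT factors that then pair, enter the nucleus and activate genes. IL6 signals through gp130 with JAK1 and STAT3, and IL3 through the common beta chain with JAK2 and STAT5. JAK3 binds the common gamma chain, TYK2 serves interferon and IL12 type receptors, STAT2 acts with IRF9 at interferon-stimulated genes, and STAT6 answers IL4. FLT3 carrying the internal tandem duplication is known to activate STAT5, and p300 and CBP are coactivators of several STATs.

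Values are TPM, the share of a library's transcripts that a gene takes, which are divided by transcript length and can be compared between genes, but are relative to all other RNA of the library. The libraries summed to between 914204 and 931697 TPM, and the number of reads behind a value is unknown. *Dnmt3a* was between 29.3 and 55.7 TPM with DMSO in *D/F* cells and between 39.9 and 53.9 in *T/F* cells, so it did not separate the genotypes, whereas *Tet2* was lower in *T/F* cells (between 30.0 and 35.8 TPM) than in *D/F* cells (between 38.3 and 43.4 TPM). The progenitor markers *Kit*, *Flt3*, *Cd34*, *Myb* and *Mpo* were present in all libraries, with a summed level between 1812 and 4176 TPM with DMSO. Mature neutrophil markers were also abundant, and their 6 genes summed to between 2323 and 9360 TPM with DMSO. Lymphoid markers were low, with sums of at most 48.1 TPM for the 4 of 7 T cell markers that were listed, at most 25.6 TPM for 3 of 6 B cell markers and at most 23.5 TPM for 3 of 4 NK cell markers, and 3 of 4 erythroid markers summed to at most 13.0 TPM. The 3 megakaryocyte markers summed to 201 TPM in *D/F* replicate 2 with DMSO and to at most 54.4 TPM in the other DMSO libraries.

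*Jak1* is annotated at chr4:101152367-101265282 (reverse strand) and *Stat2* at chr10:128270559-128292849 (forward strand) (GRCm38, GENCODE vM21). RefSeq promoters were found for all 9 genes in GRCm38.p6, from 250 bases before to 50 after the start. The promoters of *Jak1* and *Stat2*, the genes called higher in *T/F* cells before pairing, are shown with the motifs found in them. Of the other 7 genes, including *Jak2*, none held any of the 3 motifs searched. In *Jak1* the capitals mark the full cyclic AMP response element TGACGTCA, 101 bases upstream of the start, which 1.79% of 32851 promoters of this length hold on either strand. In *Stat2* the capitals mark the core of an interferon-stimulated response element (GAAA, any 2 bases, GAAA), read on the opposite strand and 222 bases upstream, which 3.44% of promoters hold. The STAT site TTCNNNGAA, which 8.30% of promoters hold, was not found in these letters in any promoter of the 9 genes. The motifs were chosen with results of these data known, and a match is a description of letters and not a shown site.
Jak1 promoter, chr4:101265174-101265473, reverse strand: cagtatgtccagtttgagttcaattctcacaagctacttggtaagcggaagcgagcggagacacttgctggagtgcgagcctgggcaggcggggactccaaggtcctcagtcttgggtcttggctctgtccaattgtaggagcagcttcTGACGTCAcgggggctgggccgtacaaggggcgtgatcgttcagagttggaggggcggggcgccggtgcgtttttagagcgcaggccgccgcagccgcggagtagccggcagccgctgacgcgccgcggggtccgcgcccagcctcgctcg
Stat2 promoter, chr10:128270248-128270547, forward strand: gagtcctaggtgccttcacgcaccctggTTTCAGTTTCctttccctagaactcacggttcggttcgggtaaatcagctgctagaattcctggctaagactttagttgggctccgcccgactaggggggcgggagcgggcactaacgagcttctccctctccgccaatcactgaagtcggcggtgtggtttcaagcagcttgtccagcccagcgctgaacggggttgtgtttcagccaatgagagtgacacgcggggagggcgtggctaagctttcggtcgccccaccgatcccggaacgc

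*Stat5b*, *Stat5a* and *Stat3* are neighbours on chromosome 11 (GRCm38, GENCODE vM21). *Stat5b* lies from 100780731 to 100850724 on the reverse strand and *Stat5a* from 100859351 to 100885169 on the forward strand, 8626 bases away. The end of *Stat5a* overlaps the end of *Stat3* (100885098 to 100939540, reverse strand) by 72 bases. *Stat5a* and *Stat5b* are close copies. Of the 31-base words of the coding transcripts of *Stat5a*, 20.2% also occur in *Stat5b*, and 15.2% of those of *Stat5b* occur in *Stat5a*. Their longest identical stretch is 324 coding bases over 3 exons, starting in exon 7 of 20 of *Stat5a* (100874023 to 100874983) and in exon 6 of 19 of *Stat5b* (100797741 to 100798701). The 90 bases before this stretch and its first 60 bases are shown because they bear on how far the levels of both genes can be separated. The capital marks the only base of 150 that differs.
Stat5a coding transcript: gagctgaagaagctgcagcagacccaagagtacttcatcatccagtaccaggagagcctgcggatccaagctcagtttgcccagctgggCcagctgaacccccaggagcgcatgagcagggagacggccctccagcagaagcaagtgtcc
Stat5b coding transcript: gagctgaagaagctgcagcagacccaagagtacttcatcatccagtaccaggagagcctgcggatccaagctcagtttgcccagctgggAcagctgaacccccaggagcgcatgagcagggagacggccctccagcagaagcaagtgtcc
A read that lies within such a stretch cannot be assigned by its sequence, so the division of reads between *Stat5a* and *Stat5b* is uncertain. *Jak3* shared 8.43% of its words with *Insl3*, whose annotation overlaps it on the same strand, and *Jak1*, *Jak2*, *Tyk2*, *Stat2* and *Stat6* shared 0 with any other gene read in the direction of its transcript. Words were not compared with the opposite strand, where *Stat6* overlaps *Nab2* by 40 bases. The antisense gene *1700084C06Rik* overlaps 24326 bases of *Tyk2*, and whether the counting used the strand is not given in the sources used here.

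*Stat3* had the highest TPM of the 9 genes and *Stat2* the lowest in its mean in all 4 groups, although the ranges of *Stat3* and *Jak1* overlapped in *D/F* cells with CCS1477. In those cells *Stat2* and *Jak3* also overlapped, and *Stat2* was above *Jak3* in 1 of 3 libraries. With DMSO, *Stat3* was 198 ± 27.9 TPM (SD, n = 3) in *D/F* cells and 201 ± 32.1 TPM in *T/F* cells, above 95.5% and 95.4% of the genes in the table. *Jak1* followed at 109 ± 34.7 and 96.6 ± 8.52 TPM, and *Stat6* at 94.3 ± 8.69 and 93.5 ± 7.61 TPM. The ranges of *Jak1* and *Stat6* overlapped with DMSO in both genotypes, and *Jak1* was above *Stat6* in every library with CCS1477. *Stat5a* (61.5 ± 22.7 and 54.2 ± 11.2 TPM) and *Jak2* (53.7 ± 21.9 and 62.3 ± 19.3 TPM) came next and overlapped each other. *Stat5b*, *Tyk2* and *Jak3* lay between 38.3 and 40.7 TPM in their group means with DMSO and could not be ordered. *Stat2* was at 19.2 ± 5.79 TPM in *D/F* cells and 18.8 ± 2.99 TPM in *T/F* cells, above 51.7% and 52.2% of genes.

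**Figure D1:**
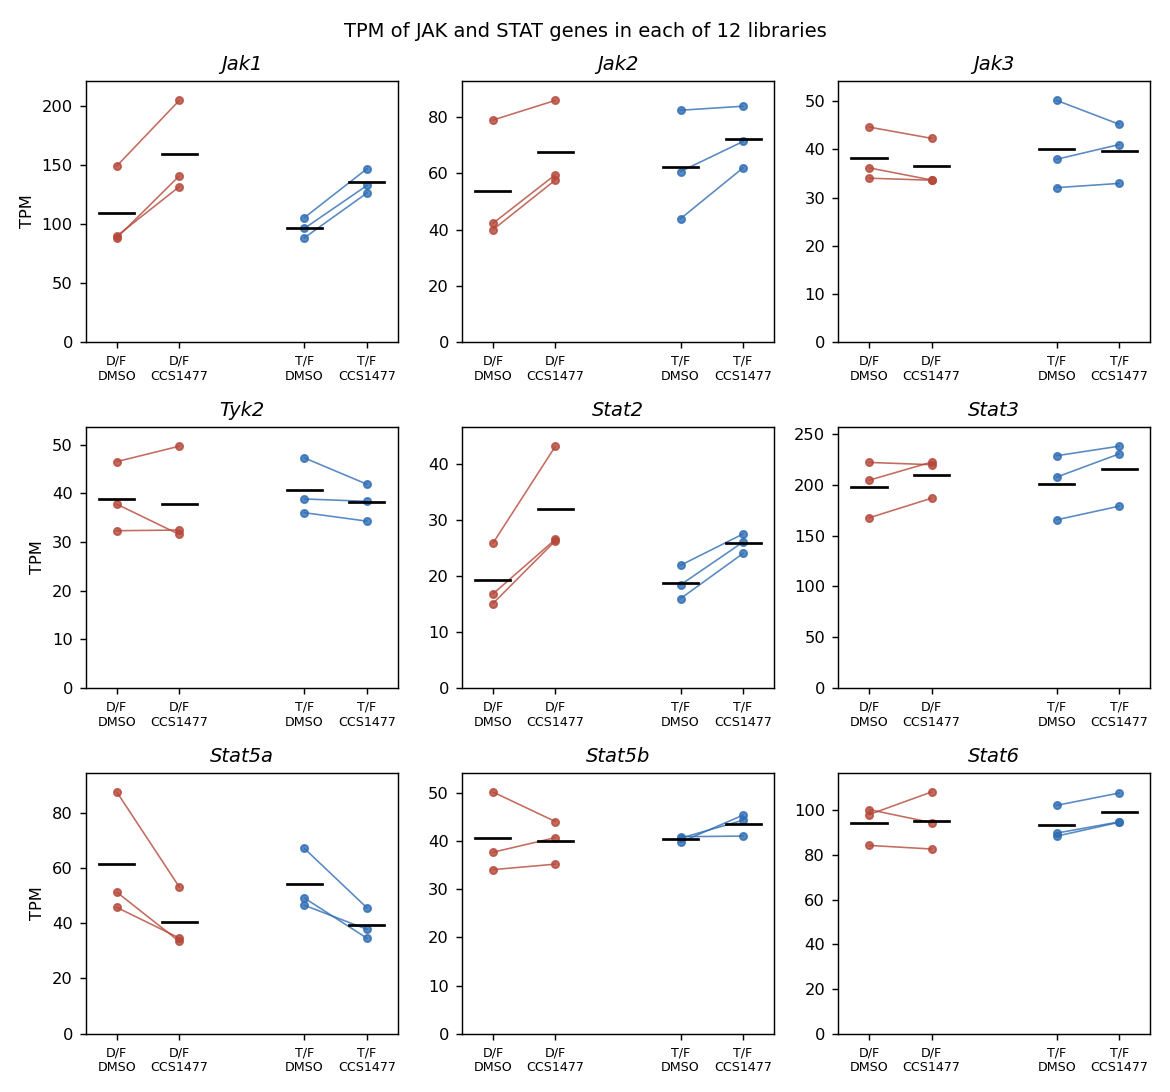
TPM of each of the 9 genes (y axis, from 0) in the 12 libraries, with red points for D/F and blue points for T/F cells, thin lines joining the DMSO and CCS1477 cells of a mouse, and black bars for group means (n = 3). The lines of Jak1 and Stat2 rise and those of Stat5a fall in all 6 mice, and the lines of Jak3, Tyk2 and Stat6 cross or run level.

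CCS1477 was followed by higher *Jak1* in each mouse. With DMSO, the *D/F* mice had 89.7, 149 and 88.2 TPM of *Jak1*, and with CCS1477 132, 204 and 141 TPM. The *T/F* mice went from 88.3, 96.2 and 105 TPM to 126, 132 and 147 TPM. Replicate 2 of *D/F* was high in both treatments, so the groups overlapped in *D/F* cells and not in *T/F* cells. The ratio within a mouse was between 1.37 and 1.60. By limma, the difference on the log2 scale was 0.56 in *D/F* cells (95% interval -0.12 to 1.23, adjusted p = 0.236) and 0.48 in *T/F* cells (0.24 to 0.72, adjusted p = 0.0101). With the mouse as a block, which the labels allow because the CCS1477 and DMSO cells of a replicate number are from the same mouse, the limma adjusted p was 0.0165 in *D/F* cells and 0.0042 in *T/F* cells.

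*Jak2*, the kinase of the IL3 receptor, was also higher with CCS1477 in 6 of 6 mice but by less even amounts. In *D/F* it went from 42.2, 78.9 and 39.9 TPM to 59.5, 85.9 and 57.6 TPM, and in *T/F* cells from 43.8, 60.6 and 82.4 TPM to 61.9, 71.3 and 83.8 TPM. The ratios fell between 1.02 and 1.44 and were lowest in the mice with the highest *Jak2* with DMSO, *T/F* replicate 3 and *D/F* replicate 2. The DMSO level is the divisor of the ratio, so this order is not independent of it. The log2 fold change of *Jak2* reached 0.38 in *D/F* cells and 0.25 in *T/F* cells, within the spread between mice, and in the blocked fits *Jak2* passed only in the fit over both genotypes (log2 fold change 0.31, adjusted p = 0.0142 from limma). *Jak3* ranged from 32.1 to 50.2 TPM with DMSO and from 33.0 to 45.2 TPM with CCS1477, and *Tyk2* from 32.3 to 47.2 TPM and from 31.5 to 49.7 TPM. Each was higher in 2 and lower in 4 of 6 mice, and the blocked limma intervals of their log2 fold changes were -0.15 to 0.09 for *Jak3* and -0.21 to 0.07 for *Tyk2* over both genotypes.

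*Stat2* had the lowest level of the 5 STAT genes and was higher with CCS1477 in 6 of 6 mice. In the *D/F* mice it was 16.8, 25.9 and 15.1 TPM with DMSO and 26.6, 43.2 and 26.3 TPM with CCS1477, and in the *T/F* mice 16.0, 18.4 and 21.9 TPM and 24.0, 26.1 and 27.5 TPM. The CCS1477 libraries lay above the DMSO libraries in both genotypes, without overlap, and the ratio within a mouse was between 1.26 and 1.75. The share of all genes that separate in this way was not counted. The same holds for *Jak1*, *Stat5a* and *Stat5b*, whose groups did not overlap in *T/F* cells. In *T/F* cells 25.8% of all genes were called higher and 17.6% lower without pairing, so separation alone does not set these genes apart. This was a log2 fold change of 0.71 in *D/F* cells (95% interval 0.02 to 1.39, limma adjusted p = 0.154) and 0.45 in *T/F* cells (0.15 to 0.76, adjusted p = 0.0304). In the blocked fits the limma adjusted p was 0.00932 in *D/F* cells and 0.0106 in *T/F* cells.

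*Stat5a* moved the other way. It went from 45.7, 87.5 and 51.2 TPM to 34.6, 53.1 and 33.4 TPM in the *D/F* mice and from 49.1, 46.5 and 67.0 TPM to 34.6, 37.8 and 45.6 TPM in the *T/F* mice. Every mouse had less with CCS1477, at 0.607 to 0.813 of its DMSO level, and the groups overlapped in *D/F* cells through replicate 2 but not in *T/F* cells. These values gave a log2 fold change of -0.57 in *D/F* cells (95% interval -1.30 to 0.17, limma adjusted p = 0.266) and -0.44 in *T/F* cells (-0.87 to -0.02, adjusted p = 0.0846). Both passed in the blocked fits, with limma adjusted p = 0.0205 and 0.0122.

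*Stat5b*, the close copy of *Stat5a*, was 37.7, 50.2 and 34.1 TPM with DMSO and 40.8, 44.1 and 35.2 TPM with CCS1477 in *D/F* cells, and 40.9, 40.6 and 39.8 TPM and 41.1, 44.4 and 45.4 TPM in *T/F* cells. The groups overlapped in *D/F* cells, whereas the *T/F* libraries with CCS1477 all lay above those with DMSO, by little. How many of all genes do so was not counted. Its log2 fold change came to -0.01 in *D/F* cells and 0.11 in *T/F* cells. *Stat3*, the main STAT of IL6, ranged from 166 to 229 TPM with DMSO and from 179 to 238 TPM with CCS1477 and was higher in 5 of 6 mice, by at most 1.12-fold. *Stat6* ranged from 84.3 to 102 TPM and from 82.7 to 108 TPM. None of these 3 genes passed in either genotype by limma, before or after pairing, although *Stat5b*, *Stat3* and *Stat6* were each higher in 3 of 3 *T/F* mice, and over both genotypes the blocked limma intervals were -0.09 to 0.19 for *Stat5b*, -0.01 to 0.20 for *Stat3* and -0.07 to 0.16 for *Stat6* on the log2 scale.

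**Figure D2:**
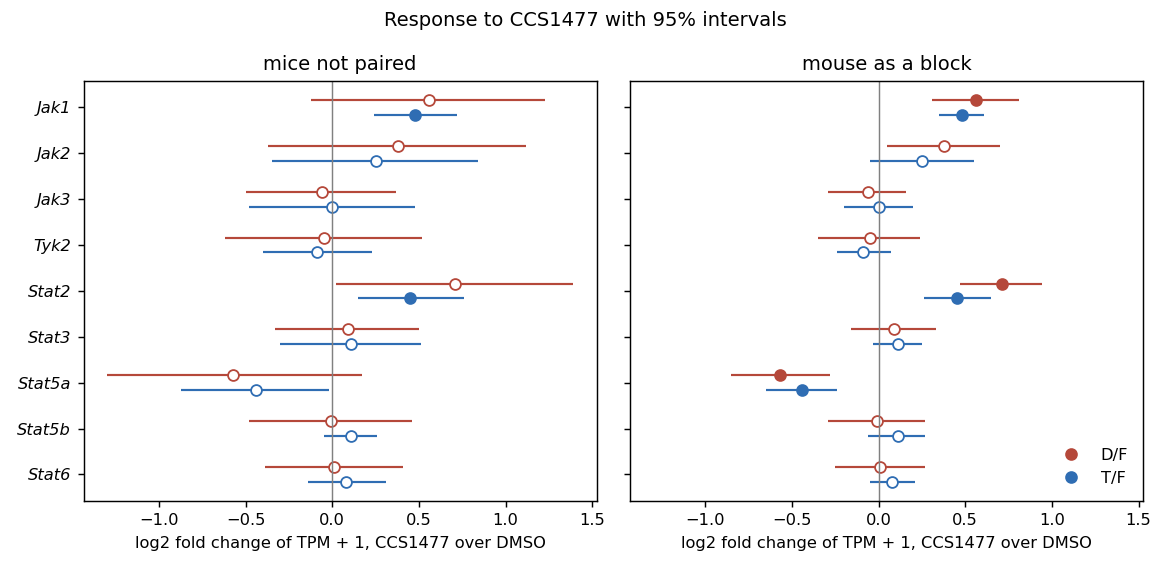
log2 fold change of TPM + 1 between CCS1477 and DMSO cells (x axis) for each gene, with 95% intervals from limma, without pairing the mice (left) and with the mouse as a block (right); red is D/F, blue is T/F, and filled points have an adjusted p under 0.05. Jak1, Stat2 and Stat5a are filled in both genotypes on the right, and on the left only Jak1 and Stat2 in T/F.

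Without pairing, 0 of the 9 genes passed an adjusted p of 0.05 in *D/F* cells by limma, where 5.14% of 15501 genes were called higher and 6.51% lower, and 1 of the 9, *Stat2*, had an unadjusted p under 0.05. In *T/F*, 2 of 9 were called higher (*Jak1* and *Stat2*) and 0 lower, against 25.8% and 17.6% of 15256 genes. Quantile normalization moved the calls of all genes in *D/F* cells from 796 higher and 1009 lower to 1552 and 1294, and rescaling to the median gene moved those in *T/F* cells from 3935 higher and 2685 lower to 3139 and 3154. Over both genotypes, *Jak1* (log2 fold change 0.52, adjusted p = 0.0142 from limma) and *Stat2* (0.58, adjusted p = 0.0121) were called higher and *Stat5a* (-0.51, adjusted p = 0.0376) lower, so that 2 of 9 rose and 1 of 9 fell where 25.8% of 15583 genes rose and 19.6% fell. When the mouse was a block, 2 of 9 were higher and 1 lower in each genotype. The share of all genes called higher was then 21.4% in *D/F* cells and 31.2% in *T/F* cells, and lower 18% and 22.9%. The same block over both genotypes called 3 of 9 higher and 1 lower, against 34.5% and 25.9% of all genes. The counts of the 9 genes are thus near those of all genes, and none of the 9 changed as much as 2-fold in any mouse. All genes tested had a median log2 fold change of 0.06 in *D/F* cells and 0.07 in *T/F* cells.

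The calls depended on the mice included. Without *D/F* replicate 1 or replicate 3, 0 genes of the whole table passed in *D/F* cells by limma, while 2494 and 2330 had an unadjusted p under 0.05. Without *D/F* replicate 2, the mouse with the highest level of most of the 9 genes, 4 of them passed in *D/F* cells (*Jak1*, *Jak2* and *Stat2* higher, *Stat5a* lower). In *T/F*, *Jak1* and *Stat2* did not pass without replicate 1 or without replicate 2, and *Stat5a* also passed without replicate 3 (adjusted p = 0.039 from limma). Over both genotypes *Jak1* and *Stat2* passed without any single mouse, and *Stat5a* passed only without *D/F* replicate 2, with an adjusted p up to 0.087 otherwise.

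The make-up of each family with CCS1477 differed from that with DMSO. The summed JAK TPM was higher with CCS1477 in 6 of 6 mice, going from a mean of 240 to 301 TPM in *D/F* cells and from 240 to 285 TPM in *T/F* cells. *Jak1* made up 45.2 ± 1.53% (SD, n = 3) of this sum with DMSO and 52.7 ± 1.32% with CCS1477 in *D/F* cells, and 40.7 ± 3.60% and 47.5 ± 1.71% in *T/F* cells. The shares of *Jak3* and *Tyk2* were lower in 6 of 6 mice, with mean changes of -3.4 and -3.83 percentage points, and the share of *Jak2* was higher in 3 of 6. The summed STAT TPM, led by *Stat3* with 45.5% to 52.5% with DMSO, was higher in 5 of 6 mice (means of 414 to 417 TPM in *D/F* cells and 408 to 424 TPM in *T/F* cells). Within it, *Stat2* went from 4.59 ± 0.736% to 7.58 ± 1.44% in *D/F* cells and from 4.59 ± 0.269% to 6.13 ± 0.301% in *T/F* cells. These shares were not tested.

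The shift between the STAT5 genes was tested as the share of *Stat5a* in the sum of *Stat5a* and *Stat5b*. It was 59.5 ± 4.39% (SD, n = 3) with DMSO and 49.7 ± 4.45% with CCS1477 in *D/F* cells, and 56.9 ± 5.12% and 47.3 ± 2.45% in *T/F* cells. *Stat5a* exceeded *Stat5b* in all 6 DMSO libraries, and with CCS1477 it did so in 1 of 3 libraries of each genotype. The share fell in 6 of 6 mice, with a mean change of -9.67 percentage points (SD 1.96, n = 6 mice) and a range from -12.7 to -7.37. An exact permutation test, two-sided and paired within mice, gave p = 0.0312, the smallest that 6 pairs allow. The test does not cover the uncertain assignment of reads that both genes share. The sum of both genes was lower in 6 of 6 mice, going from a mean of 102 to 80.4 TPM in *D/F* cells and from 94.7 to 82.9 TPM in *T/F* cells.

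**Figure D3:**
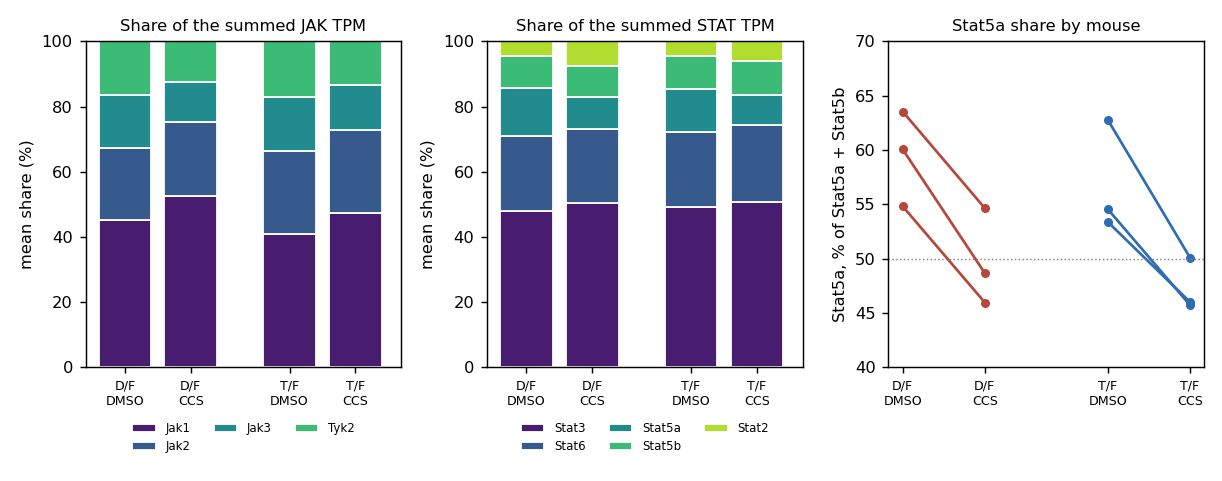
Mean share of each kinase in the summed JAK TPM and of each factor in the summed STAT TPM by group (stacked bars, n = 3, in percent), and the share of Stat5a in Stat5a + Stat5b in each mouse (right, y axis from 40% to 70%; red D/F, blue T/F). The Jak1 and Stat2 segments grow and the Stat5a segment shrinks with CCS1477 in both genotypes, and all 6 lines of the Stat5a share fall.

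No difference between the genotypes in the 9 genes was larger than the spread between mice. With DMSO the difference of *T/F* from *D/F* ranged from -0.14 for *Stat5a* to 0.24 for *Jak2* on the log2 scale, and 0 of 9 passed by limma, where 5 genes or 0.0328% of the table did, with 0 of 9 at an unadjusted p under 0.05. With CCS1477 it ranged from -0.26 for *Stat2* to 0.13 for *Stat5b*, with 0 of 9 called against 0.0329% and 0 of 9 at an unadjusted p under 0.05. With DMSO the 95% interval of the difference ran from -0.59 to 1.06 for *Jak2* and from -0.32 to 0.30 for *Stat6*. The difference of the response (*T/F* minus *D/F*) ranged from -0.25 for *Stat2* to 0.12 for *Stat5a* on the log2 scale. By limma 0 of 9 genes passed this test and 0% of all genes did, with and without the block. Unadjusted p-values under 0.05 were found for 0 of 9 genes without the block and for *Stat2* with it, where its limma adjusted p was 0.331 and the interval ran from -0.50 to -0.01.

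Mice of the same genotype also differed from each other. *D/F* replicate 2 had the highest level of 8 of the 9 genes with DMSO and of 8 with CCS1477, and *T/F* replicate 3 of 7 and 8. These mice also had the lowest summed mature neutrophil markers of their genotype, at 2654 TPM against 9360 and 6244 TPM in *D/F* with DMSO and at 2323 TPM against 7127 and 5624 TPM in *T/F* cells. Their progenitor sums, in which *Mpo* was the largest part, were the lowest as well. With DMSO these were 2210 TPM against 4176 and 3169 TPM in *D/F* and 1812 TPM against 2593 and 2270 TPM in *T/F* cells. *Mpo* had the highest mean of the 5 progenitor markers, at 2494 TPM in *D/F* and 1758 TPM in *T/F* cells with DMSO. *D/F* replicate 2 and *T/F* replicate 3 had the lowest *Mpo* of their genotype with DMSO, at 1163 and 1244 TPM. The other progenitor markers went the other way and were highest in these mice. *Kit* was 149 and 67.0 TPM, *Flt3* 46.0 and 47.0 TPM, *Cd34* 447 and 201 TPM and *Myb* 406 and 252 TPM. The low progenitor sums thus followed *Mpo* alone. *Stat5b* in *T/F* with DMSO was the most even, with a coefficient of variation of 1.47%, and *Jak2* in *D/F* with DMSO the least, with 40.8%. With CCS1477 the neutrophil sum was between 1626 and 9308 TPM in *D/F* cells and between 2488 and 6890 TPM in *T/F* cells. Its genes did not move alike. Mean *Camp* went from 154 to 44.8 TPM in *D/F* cells and from 97.7 to 52.3 TPM in *T/F* cells. Mean *Mmp8* went from 40.1 to 11.7 TPM and from 116 to 34.9 TPM. The means of *S100a8* were also lower in both genotypes, and those of *Ltf*, *Ngp* and *S100a9* were higher. The progenitor, macrophage, NK cell, B cell and megakaryocyte sums were lower with CCS1477 in every mouse of both genotypes. For B cell markers the range went from 12.2 to 25.6 TPM to 5.54 to 11.4 TPM in *D/F* cells and from 18.2 to 21.7 TPM to 12.6 to 15.9 TPM in *T/F* cells. For megakaryocyte markers it went from 33.2 to 201 TPM to 19.3 to 63.3 TPM and from 47.1 to 54.4 TPM to 31.7 to 34.2 TPM. The progenitor sum was between 488 and 1722 TPM in *D/F* cells and between 711 and 1221 TPM in *T/F* with CCS1477. The macrophage sum (4 of 5 markers listed) went from a range of 73.0 to 88.5 TPM to 27.7 to 36.2 TPM in *D/F* cells and from 106 to 145 TPM to 41.5 to 57.9 TPM in *T/F* cells, and the NK cell sum from at least 7.88 TPM to at most 2.00 TPM. The part of these cell types in the differences between mice and between treatments was not tested. In bulk RNA, fewer cells of a type and less RNA per cell cannot be told apart.

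Of the genes around the kinases and factors, more receptor genes were called lower than higher. Among 31 tested receptors that pair with JAKs, 5 fell and 0 rose in *D/F* cells, and 10 fell and 2 rose in *T/F* cells, and in the blocked fits 15 fell and 3 rose in *D/F* cells while 18 fell and 6 rose in *T/F* cells. Of all genes tested, 6.51% fell and 5.14% rose in *D/F* cells, and 17.6% fell and 25.8% rose in *T/F* cells. In the blocked fits these shares were 18% and 21.4% in *D/F* cells and 22.9% and 31.2% in *T/F* cells. The same shares apply to the lists that follow. The receptors had a median log2 fold change of -0.56 in *D/F* cells and -0.37 in *T/F* cells. *Csf3r*, the receptor of G-CSF, fell from 89.8 ± 24.4 to 16.7 ± 2.36 TPM in *D/F* cells (SD, n = 3) and from 51.8 ± 3.80 to 19.2 ± 3.04 TPM in *T/F* cells (adjusted p = 0.00637 and 0.00088 from limma). *Il4ra*, whose product signals through JAK1 and STAT6, fell from 52.2 ± 14.3 to 22.4 ± 4.59 TPM and from 82.8 ± 20.6 to 36.8 ± 8.88 TPM (adjusted p = 0.0374 and 0.0152). *Il15ra* fell from 48.8 ± 18.3 to 18.2 ± 5.50 TPM and from 41.4 ± 11.1 to 21.7 ± 4.71 TPM (adjusted p = 0.0483 and 0.0279). The receptors of the cytokines in the medium were singled out after their values had been seen. For IL6, *Il6st* (gp130) fell in *T/F* cells from 72.0 to 37.3 TPM (adjusted p = 0.0164 from limma) and was 31.9 and 27.9 TPM in *D/F* cells (adjusted p = 0.712). *Il6ra* was 20.8 and 13.3 TPM in *D/F* cells and 36.0 and 24.7 TPM in *T/F* cells, passing only with the mouse as a block (adjusted p = 0.0269 and 0.00377 from limma). For IL3, *Il3ra* was 31.8 and 35.1 TPM in *D/F* cells and 23.1 and 34.4 TPM in *T/F* cells, and the common beta chain gene *Csf2rb* was 238 and 133 TPM and 280 and 233 TPM (none called before pairing). In *T/F* cells the blocked fit called *Il3ra* higher (log2 fold change 0.55, adjusted p = 0.0039 from limma) and *Csf2rb* lower (-0.29, adjusted p = 0.0353). *Csf2rb2*, also in the receptor list, was 49.5 and 20.8 TPM in *D/F* cells and 63.1 and 44.0 TPM in *T/F* cells. It was called lower in both genotypes, but only with the block (adjusted p = 0.0191 and 0.00771 from limma). For SCF, *Kit*, which is not in the receptor list, had means of 86.7 and 34.3 TPM in *D/F* cells and 57.7 and 30.5 TPM in *T/F* cells.

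Of 15 tested ligands, 3 fell and 0 rose in *D/F* cells and 2 fell and 2 rose in *T/F* cells (4 and 1, and 6 and 2, with the block). *Il12a* fell from 15.8 ± 11.3 to 0.653 ± 0.399 TPM in *D/F* cells and from 7.09 ± 2.08 to 1.34 ± 0.789 TPM in *T/F* cells (adjusted p = 0.0124 and 0.00456 from limma), and *Ebi3*, which pairs with it in IL35, from 44.8 ± 12.3 to 15.4 ± 5.82 TPM and from 62.6 ± 6.59 to 29.1 ± 1.44 TPM (adjusted p = 0.0298 and 0.000829). Of 20 inhibitors of the pathway, 1 rose and 0 fell in *D/F* cells and 5 rose and 3 fell in *T/F* cells (5 and 1, and 9 and 4, with the block). The 3 that fell include *Ptprc*, which encodes the leukocyte antigen CD45 and was listed at only 2.78 TPM with DMSO and 1.48 TPM with CCS1477, a low level for blood cells whose cause was not tested. *Pias3*, an inhibitor of STAT3, rose from 13.3 ± 7.28 to 47.5 ± 5.70 TPM and from 12.1 ± 2.02 to 40.1 ± 2.41 TPM (adjusted p = 0.0252 and 0.000628 from limma). Of 10 partners and coactivators of STATs, 1 rose in *D/F* cells and 5 in *T/F* cells, and 0 fell (4 rose and 1 fell, and 6 and 0, with the block). *Ep300*, which encodes a target of the compound, rose from 58.8 ± 4.60 to 95.7 ± 1.67 TPM and from 60.1 ± 3.54 to 106 ± 4.69 TPM (adjusted p = 0.0294 and 0.00084).

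Genes known as targets of the factors were counted in the same way. Of 19 STAT5 targets, 3 fell and 1 rose in *D/F* cells and 4 fell and 1 rose in *T/F* cells (5 and 1, and 8 and 5, with the block), with medians of -0.06 and -0.15 on the log2 scale. Those called lower in both were *Myc*, *Bcl2* and the D-type cyclin *Ccnd2*, which went from 176 ± 11.6 to 59.2 ± 15.1 TPM in *D/F* cells and from 171 ± 18.3 to 63.9 ± 4.30 TPM in *T/F* cells (adjusted p = 0.0124 and 0.00052 from limma). Before pairing, the gene called higher was *Pim2* in *D/F* cells (34.1 to 86.6 TPM, adjusted p = 0.0183 from limma). In *T/F* cells it was *Pim1* (392 to 510 TPM, adjusted p = 0.0212). *Cish* (41.1 and 36.3 TPM in *D/F*, 37.8 and 42.7 TPM in *T/F* cells) and *Socs2* (113 and 114, 109 and 112 TPM) were not called, with or without the block. These 4 genes were named after their values were seen. Of 17 tested STAT3 targets, 3 fell and 0 rose in *D/F* cells and 5 fell and 1 rose in *T/F* cells (7 and 0, and 11 and 2, with the block), with medians of -0.21 and -0.47. *Fgl2*, encoding a prothrombinase of myeloid cells, fell with *Myc* and *Il4ra* in both genotypes, from 39.9 ± 9.93 to 12.3 ± 5.80 TPM and from 33.1 ± 8.86 to 17.3 ± 2.94 TPM (adjusted p = 0.0385 and 0.0193). Of 12 tested STAT6 targets, 1 fell in *D/F* cells and 4 in *T/F* cells and 0 rose (8 and 9 fell with the block), and the medians were -1.10 and -0.87. The targets of the STAT2 complex, genes induced by type I interferon, had 0 calls of 20 tested in *D/F* cells by limma, with 1 of 20 at an unadjusted p under 0.05, and 4 higher and 0 lower in *T/F* cells (2 higher and 1 lower, and 8 and 1, with the block), with medians of -0.09 and 0.21. Genes stand in more than 1 list, and the shares of all genes called are those given above for the same fits.

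**Figure D4:**
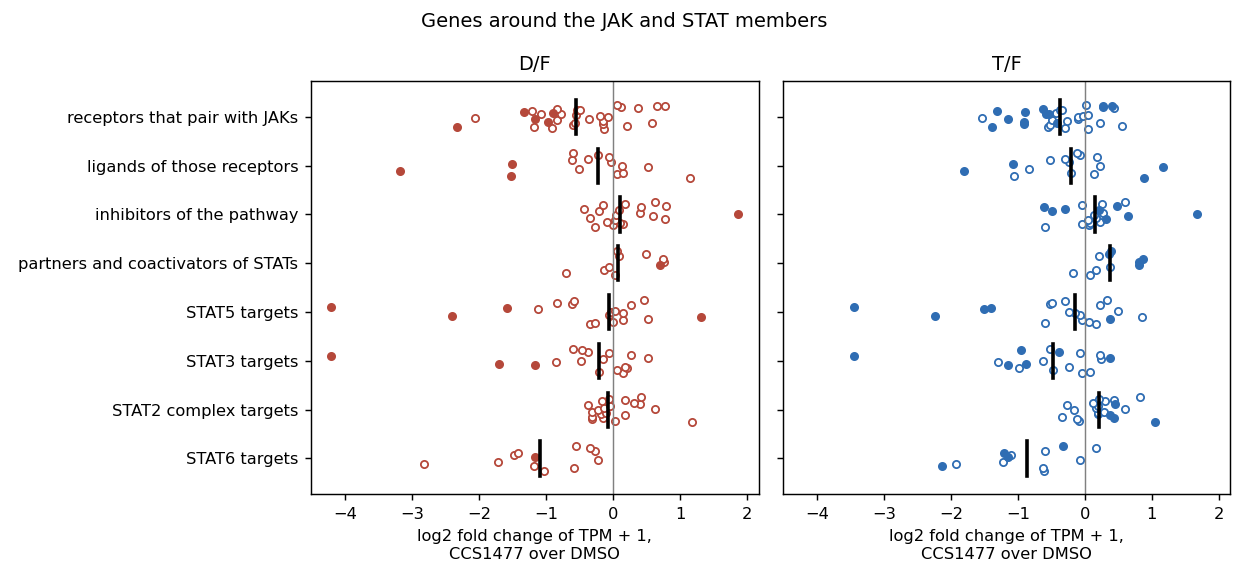
log2 fold change of TPM + 1 between CCS1477 and DMSO cells (x axis) of the tested genes of each list (rows) in D/F (left, red) and T/F (right, blue), without pairing; filled points have an adjusted p under 0.05 and black bars are the medians of a list. The receptor and STAT6 target lists have medians below 0 in both genotypes, at -0.56 and -1.10 for D/F cells and at -0.37 and -0.87 for T/F cells, while the medians of the other lists lie between -0.47 and 0.37.

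No gene of the 9 was called in both genotypes without pairing, so the rule for genes of like pattern named none. Applied after the values were seen to the 3 genes called in both genotypes with the mouse as a block, it took the genes with the smallest root mean square difference of log2(TPM + 1) over the 12 libraries, each centred on its mean, among 11397 other genes whose mean reached 5 TPM. *Kidins220* and *Fam13b* were nearest to *Jak1*, at 0.0559 and 0.0573, where *Jak1* itself varied by 0.359 about its mean. *Zswim8* and *Bsdc1* were nearest to *Stat2* (0.0798 and 0.0801, against 0.392), and *Atm* and *Abcc1* to *Stat5a* (0.0958 and 0.101, against 0.385). *Kidins220* went from 43.2 to 62.7 TPM in *D/F* cells and from 38.9 to 53.2 TPM in *T/F* cells, and *Zswim8* from 23.2 to 38.6 TPM and from 22.3 to 34.1 TPM.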

How the data were processed

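RNA-seq was performed on 12 libraries from 6 mice. The authors deposited one table of TPM values for the whole series. The submitters' processing notes name kallisto and mm10, and the study's methods name AltAnalyze. The kallisto version, the annotation and any strand setting are not given in the sources used here. The labels name both ribosomal depletion and an mRNA kit. TPM keeps no read depth, so no counting error could be given.

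Genes whose mean reached 1 TPM in a compared group were tested on log2(TPM + 1) with limma 3.58.1 in R 4.3.3 (two-sided, Benjamini-Hochberg over all genes tested, a call at an adjusted p under 0.05), and fold changes are on that scale, which understates those of low genes. The unpaired limma fits were tested on simulated data with independent libraries. The blocked fits, the permutation test and the sequence searches were not tested in this way. The labels tie libraries with the same replicate number to the same mouse within a genotype, and deviations from the group means correlated between the libraries of a mouse (0.337 to 0.650 across genes, at most 0.130 between different mice), so fits with the mouse as a block are given beside the unpaired fits. In the unpaired tests p-values measure the spread between mice. In the blocked fits and the paired permutation test they measure how evenly the difference between CCS1477 and DMSO repeated from mouse to mouse.

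The 9 genes and the gene lists were chosen with earlier results of these data known. From each list, up to 3 genes were named, in order of fold change over both genotypes, among those called in the same direction in both genotypes and averaging 5 TPM or more in whichever treatment was higher. Alternatives tried were a filter at 5 TPM or none, a pseudocount of 0.1, the block, rescaling to the median gene, quantile normalization, a variance trend, all 4 groups in the fit, and leaving out each replicate. Leaving out replicates from the family shares was added after seeing the data. Gene positions and transcripts are from GENCODE vM21 (GRCm38) and promoters from RefSeq.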

Additional observations from a re-analysis of the deposited data

How the results depend on the processing

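Of 666 values of the 9 genes under alternatives, 595 kept their direction and their side of the threshold, 11 lost the call, 12 gained it and 48 changed sign. The cause was not tested. The number of the 9 genes called in *D/F* (0 before pairing) was 3 with the mouse as a replicate block, 1 with all 4 groups in the fit and 0 to 4 without 1 replicate, and in *T/F* (2 before) it was 0 with all 4 groups and 0 to 3 without 1 replicate. The number of pathway genes called in *D/F* (15 before) was 53 with the block, 25 with quantile normalization, 37 with all 4 groups and 0 to 35 without 1 replicate, and in *T/F* (44 before) it was 83 with the block, 24 with all 4 groups and 19 to 35 without 1 replicate. Rescaling to the median gene brought *Stat5a* in *T/F* to a call (log2 fold change -0.52, adjusted p = 0.0268 from limma). The Stat5a share changed by -10.1 to -9.07 percentage points without 1 mouse, with an exact permutation p of 0.0625, the smallest that 5 pairs allow, and by the same mean of -9.67 when labels were permuted within genotypes without pairing (exact p = 0.005, the smallest that this permutation allows). The unpaired permutation treats the libraries of a mouse as independent, so its smaller p is not stronger support than that of the paired test.

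The values that changed sign had no call in their comparison. For CCS1477 against DMSO they were, on the log2 scale, *Stat6* in *D/F* at -0.04 and, over both genotypes, *Stat5b* at -0.01 and *Stat6* at -0.02 after rescaling, and *Jak3* in *T/F* at 0.00019 with a pseudocount of 0.1. For the difference of the response *Stat3* was at -0.02 after rescaling and at -0.02 after quantile normalization. Between genotypes with DMSO, *Stat2* was at 0.04 and *Stat6* at 0.04 after rescaling, and *Stat2* at 0.03 and *Stat3* at -0.03 after quantile normalization, and with CCS1477 *Stat3* was at -0.05 after quantile normalization and *Stat5a* at 0.0032 after rescaling. Without 1 replicate, the response in *D/F* ranged from -0.12 to 0.05 for *Tyk2*, from -0.07 to 0.08 for *Stat5b* and from -0.06 to 0.06 for *Stat6*, and in *T/F* from -0.05 to 0.07 for *Jak3*. The difference of the response ranged from -0.14 to 0.04 for *Tyk2* and from -0.03 to 0.05 for *Stat3*. The genotype difference with DMSO ranged from -0.26 to 0.11 for *Jak1*, -0.12 to 0.19 for *Jak3*, -0.05 to 0.21 for *Tyk2*, -0.16 to 0.21 for *Stat2*, -0.10 to 0.15 for *Stat3*, -0.32 to 0.14 for *Stat5a*, -0.10 to 0.17 for *Stat5b* and -0.09 to 0.04 for *Stat6*. With CCS1477 it ranged from -0.0025 to 0.29 for *Jak2*, -0.08 to 0.24 for *Tyk2*, -0.05 to 0.16 for *Stat3*, -0.13 to 0.19 for *Stat5a* and -0.03 to 0.16 for *Stat6*.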

Other observations

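*Irf7*, an interferon-induced transcription factor and a target of the STAT2 complex, was singled out after its values were seen. In *D/F* cells its mean was 6.98 TPM with DMSO against 16.8 TPM with CCS1477 (adjusted p = 0.118 from limma, 0.00504 with the mouse as a block), and rose from 8.90 to 19.0 TPM in *T/F* cells (adjusted p = 0.0258). *Irf7* had the largest rise of its list, whose median log2 fold changes were -0.09 in *D/F* and 0.21 in *T/F* cells. With the block, 2 of the 20 tested genes were called higher and 1 lower in *D/F* cells, and 8 and 1 in *T/F* cells. The gene called lower was *Bst2* in both genotypes (adjusted p = 0.049 and 0.0278 from limma).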
